A study of Mus musculus with 12 samples.

Results

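The genes described here encode splicing factors and heterogeneous nuclear ribonucleoproteins (hnRNPs). They were chosen by symbol: every probe set whose single annotated gene was an Srsf gene (including the older name Sfrs), an Snrp gene, an Sf3a or Sf3b gene, or an Hnrnp gene. The rule left out Hnrnpd. The rule found 114 probe sets of 43 genes among 20393 probe sets of 12394 genes. By role they were 28 probe sets of 9 SR protein genes, 15 of 8 Sm and snRNP protein genes, 22 of 9 SF3 subunit genes, and 49 of 17 hnRNP genes. A probe set is the group of short probes on an Affymetrix array whose signals are summarised as 1 value, and 30 of the 43 genes had 2 or more of them.

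All mice were C57BL/6 females, wild type and 10 weeks old, so that no transgene or other allele set the groups apart. Injured mice had 80% of the cord cut across after laminectomy, whereas sham mice had the laminectomy alone; the titles call the sham cords naive. At 9 hours a 2.5 cm stretch of spinal cord with the operated site was homogenised, and polysome-bound RNA (from a sucrose gradient) and total RNA (from an aliquot of the homogenate) were prepared. The 4 groups were polysome-bound RNA from injured cord, polysome-bound RNA from sham cord, total RNA from injured cord and total RNA from sham cord, with 3 biological replicates each. The labels do not say whether a replicate is 1 mouse or a pool. Marker genes of neurons averaged 11.19 to 11.47 and those of oligodendrocytes 11.74 to 12.18 on the log2 scale over the 4 groups. Whole cord is a mixture of cell types, so that fewer cells of a type and less RNA per cell cannot be told apart here.

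Splicing removes introns from pre-mRNA in the nucleus. The spliceosome is built from small nuclear ribonucleoproteins (snRNPs), each a small nuclear RNA held by a ring of Sm proteins, and the SF3a and SF3b complexes belong to the U2 snRNP that binds the branch site. SR proteins, named for their serine and arginine repeats, mostly bind exonic sequence and favour inclusion of an exon, and hnRNPs coat nascent RNA and often favour skipping. Genes of both families are known to regulate their own expression by alternative exons that carry early stop codons, and by transcripts that stay in the nucleus, so 1 gene can give several RNAs of different fate. Polysomes are mRNAs that carry several ribosomes, and only RNA in the cytoplasm can join them. The values therefore allow the question whether different probe sets of 1 gene differed in their share of polysome-bound RNA.

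All values are on the deposited log2 scale. The median of the 1-gene probe sets averaged 7.25 ± 0.06 on polysomes of injured cord, 7.33 ± 0.01 on polysomes of sham cord, 7.85 ± 0.02 in total RNA of injured cord and 7.82 ± 0.02 in total RNA of sham cord (SD, n = 3). Because the polysome arrays lay lower as a whole, by 0.60 in injured and 0.49 in sham cord, loading is given here as polysome minus total after each array was centred on that median. It is thus a position relative to the array median, not an absolute share of RNA. The median loading over all probe sets was 0.18 in injured and 0.07 in sham cord. Arrays of a group correlated at 0.994 to 0.998 across probe sets, which are not independent replicates. The Gapdh control, with probe sets at both ends of the transcript, had a 3′ minus 5′ difference of 2.83 ± 0.27 on polysomes of injured cord, 0.87 ± 0.03 on polysomes of sham cord, 1.40 ± 0.22 in injured total RNA and 0.23 ± 0.05 in sham total RNA. Actb gave 3.26 ± 0.48, 1.68 ± 0.10, 1.80 ± 0.07 and 1.46 ± 0.07 in the same order. These differences moved with both comparisons, and the part of RNA quality in the results below was not tested; where the probe sets lie within their transcripts was not used here. A control probe set for the B1 repeat, which is common in introns, averaged 11.45 ± 0.09 and 11.16 ± 0.22 on polysomes of injured and sham cord, against 14.55 ± 0.09 and 14.55 ± 0.03 in their total RNA. Of the members, 105 lay above the highest of 27 absent controls (probe sets for bacterial genes) on all 12 arrays, and 4 lay above it on none: Hnrnpa1 1455740_at, Hnrnpab 1459880_at, Sf3b5 1439370_x_at and Sf3b6 1435508_x_at. No signal of those 4 can be told from background.

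Probe sets of the same gene mostly differed in polysome loading. The test took, on each array, the value of a probe set minus that of the brightest probe set of its gene. Any shift of a whole array thus dropped out. The brightest was the one with the highest mean over all 12 arrays. Among the 71 member pairs of 30 genes, 62 differed in loading averaged over both operations (limma adjusted p under 0.05), or 87.3%, where 77.1% of all 7999 pairs of 4958 genes did so. The size of the difference set the members further from the background than its call: 15 of 71 pairs (21.1%) were called and differed by at least 1 on the log2 scale, against 9.20% of all pairs, and the median absolute difference was 0.56, against 0.32 over all pairs. Where both probe sets lay above the absent controls on all 12 arrays, 12 of 62 member pairs (19.4%) differed by at least 1, against 10.7% of 4248 such pairs. There the gap to the background was smaller: 87.1% of member pairs and 81.7% of all were called. The median absolute differences were 0.54 and 0.37. The loading of a gene's probe sets spanned a median range of 0.88 in the 30 member genes and 0.40 in all 4958 genes with 2 or more, and 24 of the 30 exceeded the median range of genes with as many probe sets. Probe sets of 1 gene were called in opposite directions in 12 of the 30 genes (40%), against 24.7% of the 4958. Among probe sets above the absent controls on all 12 arrays these were 10 of 28 genes (35.7%), against 23.5% of 2908. Which genes split depends on the centring: uncentred, 15 of those 28 did (22.0% of the 2908), and after quantile normalization 13 (24.4%). The 7 genes split under all 3 scalings were Hnrnpa2b1, Hnrnpdl, Hnrnpf, Hnrnpr, Hnrnpu, Sf3a3 and Srsf1. No test compared these shares with the background. Probe sets ending in _s_at or _x_at are less specific. In Hnrnpf the only probe sets with higher loading were of that type, 1456664_x_at (1.13) and 1437099_x_at (0.64). The largest differences given below for Hnrnpu, Srsf1, Sf3a2 and Hnrnpab also involve a probe set of that type.

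**Figure D1:**
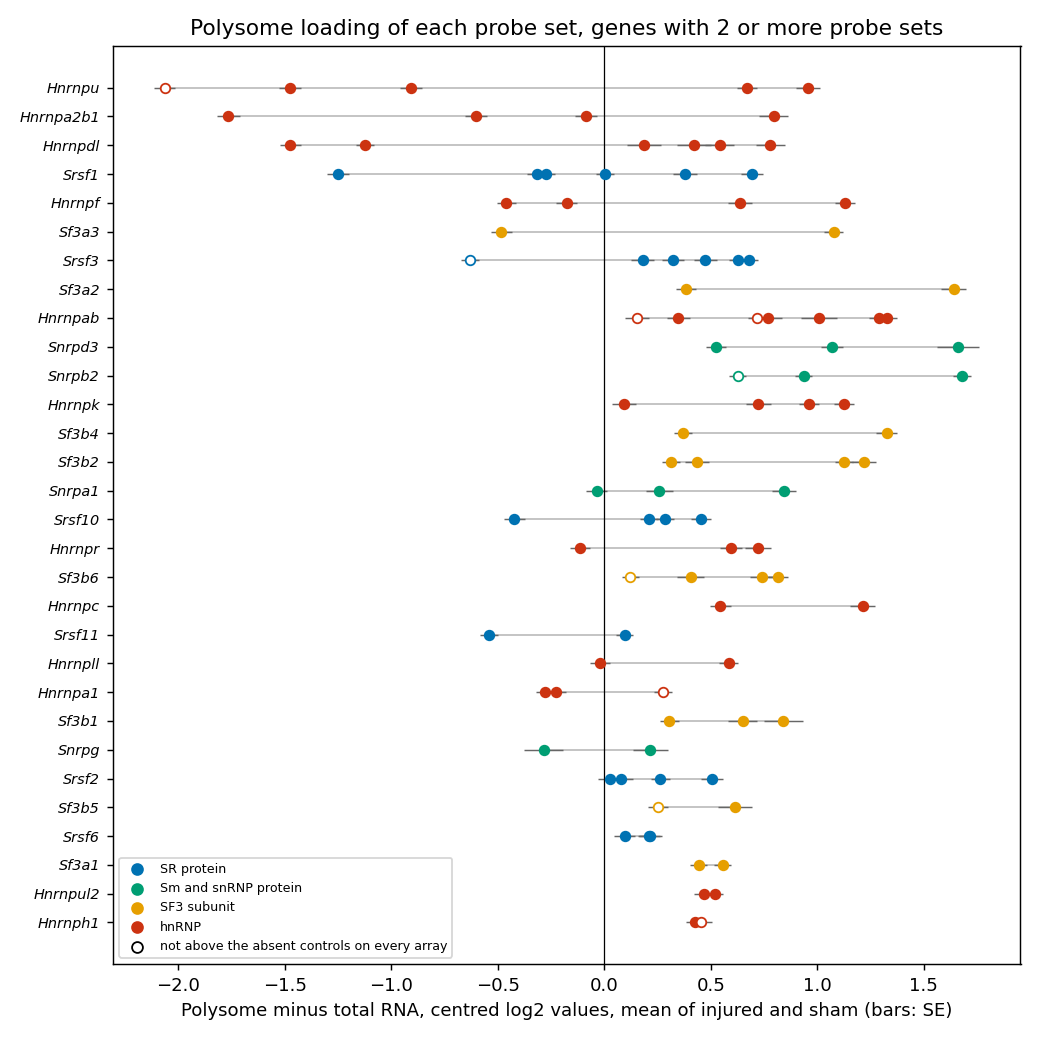
Polysome loading (polysome minus total RNA on centred log2 values, mean of injured and sham cord, bars SE) of every probe set of the 30 genes with 2 or more, 1 line per gene, ordered by range and coloured by role; open circles were not above the absent controls on every array. Hnrnpu spans -2.06 to 0.96 at the top and Hnrnph1 differs by 0.03 at the bottom.

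Hnrnpu encodes a nuclear matrix and RNA binding protein, also called scaffold attachment factor A. Its brightest probe set, 1423050_s_at, read 11.74, 11.45 and 11.52 on polysomes of injured cord and 11.43, 11.40 and 11.43 on polysomes of sham cord, against 11.27, 11.12 and 11.26 in injured and 10.90, 10.92 and 11.02 in sham total RNA. Probe set 1434391_at read 6.49, 6.47 and 6.67 in injured and 6.68, 6.77 and 6.87 in sham cord on polysomes, against 8.77, 8.80 and 8.84 in injured and 8.60, 8.50 and 8.58 in sham total RNA. The 6 polysome arrays were thus all above the 6 total arrays with the brightest probe set and all below them with the other, before any centring. Loading was 0.96 with 1423050_s_at and -1.48 with 1434391_at, a within-gene difference of -2.43 (SE 0.07, adjusted p = 1.2e-14). Polysome values of 1434391_at were close to background, since the highest absent control averaged 6.44 ± 0.05 and 6.46 ± 0.06 on polysomes of injured and sham cord. Probe set 1434390_at lay below that limit there, at 6.11, 6.15 and 6.26 in injured and 6.21, 6.26 and 6.43 in sham cord, but above it in total RNA, at 9.13, 9.15 and 9.09 in injured and 8.64, 8.44 and 8.64 in sham cord. Taken against the limit, it was at least 4.23-fold lower on polysomes in injured cord and at least 3.06-fold lower in sham cord; its measured within-gene difference was -3.02 (SE 0.07, adjusted p = 2.5e-15). Of the other probe sets, 1450849_at had a loading of -0.91 and 1423051_at one of 0.67.

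Hnrnpa2b1 encodes hnRNP A2 and B1, abundant proteins of nascent RNA that also take part in transport of mRNA along cell processes. Its brightest probe set, 1420365_a_at, read 11.63, 11.25 and 11.27 on polysomes of injured cord and 11.59, 11.52 and 11.69 on polysomes of sham cord, against 11.48, 11.34 and 11.46 in injured and 11.10, 10.99 and 11.09 in sham total RNA. The sham polysome arrays were all above the sham total arrays, and those of the injured cord overlapped. With 1433830_at, values were 7.71, 7.53 and 7.61 in injured and 7.75, 7.69 and 7.93 in sham cord on polysomes, against 10.39, 10.25 and 10.36 in injured and 9.68, 9.61 and 9.78 in sham total RNA, so that every polysome array lay below every total array. The loadings of -1.76 and 0.80 differed by -2.56 (SE 0.06, adjusted p = 1.1e-15). The other 2 probe sets lay between them, at -0.60 for 1433829_a_at and -0.09 for 1434047_x_at.

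Hnrnpdl encodes an hnRNP that binds AU-rich RNA. Probe set 1424252_at read 8.05, 7.95 and 8.02 on polysomes of injured cord and 8.08, 8.13 and 8.16 on polysomes of sham cord, against 10.34, 10.18 and 10.13 in injured and 9.90, 9.98 and 9.98 in sham total RNA, with no overlap. The brightest, 1424251_a_at, read 12.05, 12.38 and 11.86 in injured and 11.95, 11.87 and 11.81 in sham cord on polysomes, against 12.20, 12.34 and 12.02 in injured and 11.79, 11.82 and 11.76 in sham total RNA. With that one the deposited values of the fractions overlapped in both operations. The within-gene difference was -2.02 (SE 0.09, adjusted p = 1.7e-12). A second probe set, 1428225_s_at, also had low loading, at -1.12, and the remaining 3 lay between 0.19 and 0.78.

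Srsf1, the founding SR protein gene, was read by 6 probe sets. Probe set 1452430_s_at had 6.82, 7.18 and 7.04 on polysomes of injured cord and 7.32, 7.37 and 7.27 on polysomes of sham cord, against 8.99, 8.88 and 9.14 in injured and 8.85, 8.90 and 9.02 in sham total RNA. The brightest, 1428099_a_at, had 10.65, 10.75 and 10.73 in injured and 10.57, 10.44 and 10.56 in sham cord on polysomes, against 10.78, 10.61 and 10.70 in injured and 10.24, 10.08 and 10.41 in sham total RNA. With 1452430_s_at the polysome arrays were all below the total arrays of their operation, whereas with 1428099_a_at they were all above them in sham cord and overlapped them in injured cord. The loadings of -1.25 and 0.69 differed by -1.94 (SE 0.07, adjusted p = 1.1e-13). The remaining 4 had loadings of -0.32 to 0.38.

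**Figure D2:**
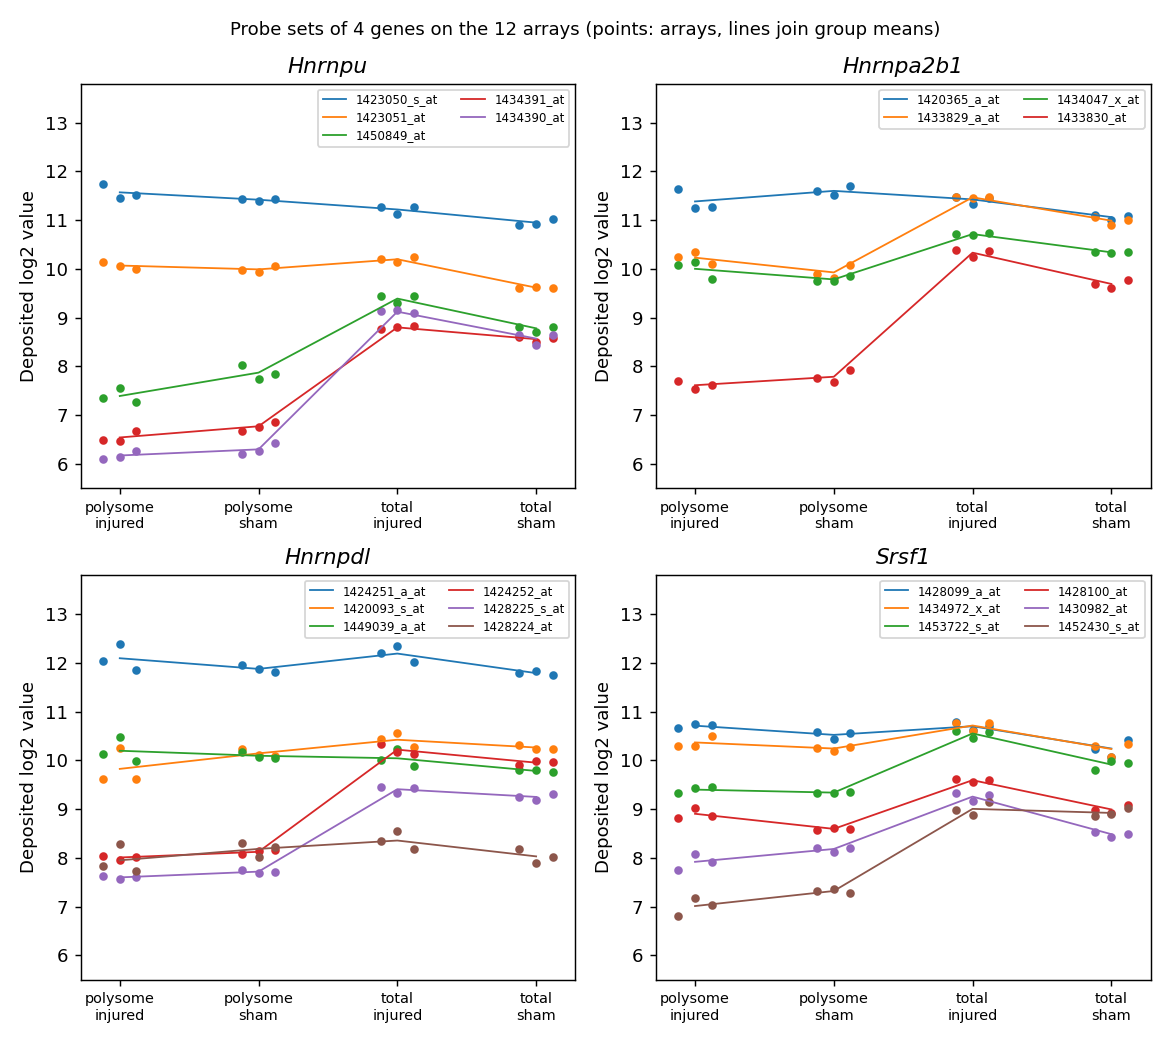
Deposited log2 values of all probe sets of Hnrnpu, Hnrnpa2b1, Hnrnpdl and Srsf1 on the 12 arrays (points are arrays, lines join group means; lines between probe sets differ in slope, and their heights are not comparable). In each gene at least 1 probe set lies far lower on polysomes than in total RNA while the brightest stays level or higher.

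Hnrnpf encodes an hnRNP that binds runs of guanines. Its probe set 1450963_at read 8.11, 8.27 and 8.01 on polysomes of injured cord and 8.21, 8.30 and 8.27 on polysomes of sham cord, against 9.62, 9.59 and 9.49 in injured and 8.78, 8.84 and 8.87 in sham total RNA. The brightest, 1456664_x_at, read 11.05, 10.94 and 10.95 in injured and 10.69, 10.55 and 10.69 in sham cord on polysomes, against 10.50, 10.46 and 10.52 in injured and 9.99, 9.87 and 10.03 in sham total RNA. The deposited values of the fractions were ordered oppositely, without overlap, in both operations. After centring, the loading of 1450963_at was -0.84 in injured cord (adjusted p = 4.0e-09) and -0.08 in sham cord, where it was not called (adjusted p = 0.28). The within-gene difference was -1.59 (SE 0.06, adjusted p = 6.6e-13). It was larger in injured than in sham cord, at -1.92 and -1.26, and that change was past the threshold (-0.66, SE 0.13, adjusted p = 7.0e-04).

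Sf3a3 and Sf3a2 encode subunits of SF3a. Sf3a3 1432488_a_at read 6.81, 7.06 and 6.71 on polysomes of injured cord and 7.45, 7.28 and 7.38 on polysomes of sham cord, against 8.16, 8.09 and 8.19 in injured and 8.20, 8.08 and 8.17 in sham total RNA, whereas 1423811_at read 9.49, 9.40 and 9.33 in injured and 9.37, 9.29 and 9.38 in sham cord on polysomes, against 8.99, 9.04 and 8.99 in injured and 8.67, 8.67 and 8.71 in sham total RNA. The first was lower on polysomes on every array and the second higher, and they differed by -1.56 (SE 0.06, adjusted p = 3.2e-13). Sf3a2 1450576_a_at read 7.07, 7.04 and 7.17 in injured and 7.27, 7.33 and 7.26 in sham cord on polysomes, against 7.08, 7.14 and 7.23 in injured and 7.60, 7.55 and 7.51 in sham total RNA. Sf3a2 1455546_s_at read 10.86, 10.74 and 10.62 in injured and 10.67, 10.62 and 10.47 in sham cord on polysomes, against 9.74, 9.52 and 9.50 in injured and 9.63, 9.49 and 9.54 in sham total RNA. With 1455546_s_at every polysome array was above every total array; with 1450576_a_at the deposited values overlapped in injured cord and were lower on polysomes in sham cord, and its loading was positive only after centring. The loadings differed by -1.26 (SE 0.08, adjusted p = 9.7e-11). Total RNA values of 1450576_a_at were close to background, since the highest absent control averaged 6.85 in injured and 7.04 in sham total RNA. For Hnrnpab, which encodes hnRNP A/B, the largest difference (-1.18) involved the probe set at background, 1459880_at, and measures the brightest probe set alone: 1455855_x_at read 11.80, 11.89 and 11.92 in injured and 11.58, 11.50 and 11.50 in sham cord on polysomes, against 11.24, 11.20 and 11.11 in injured and 10.66, 10.54 and 10.74 in sham total RNA, while 1459880_at read 5.91, 6.02 and 6.12 in injured and 5.75, 5.99 and 5.91 in sham cord on polysomes, against 6.36, 6.35 and 6.37 in injured and 6.40, 6.42 and 6.16 in sham total RNA.

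Most within-gene differences had the same direction in both operations. Across the 71 pairs, differences in injured and in sham cord, which share no array, correlated at 0.918 (Pearson) and 0.898 (Spearman), and 64 of 71 had the same sign; over all 7999 pairs the values were 0.803, 0.775 and 6300. Pairs of 1 gene share the brightest probe set, so the 71 are not independent. In injured cord 60 of 71 pairs were called (84.5%, background 71.2%) and in sham cord 56 (78.9%, background 68.4%). By role, 27 of 32 hnRNP pairs, 17 of 19 SR protein pairs, 11 of 13 SF3 pairs and all 7 Sm and snRNP pairs were called in the average of both, and 10 of the 15 pairs that differed by at least 1 were of hnRNP genes. The probe set with the lower loading was the dimmer one in 47 of the 62 called pairs (75.8%), against 64.4% of the 6171 called among all pairs. Of all pairs tested, 49.7% were called in that direction. These shares are partly set by the choice of the brightest, because its mean includes the polysome arrays. In total RNA alone, Hnrnpll 1425255_s_at lay above its reference, by 0.15 in injured and 0.16 in sham cord. Sf3b6 1417055_at did too, by 0.17 and 0.15. Besides the 4 genes above, Hnrnpf and Sf3a3, the genes with probe sets called in opposite directions were Srsf3, Srsf10, Srsf11, Hnrnpr, Snrpg and Hnrnpa1. In Hnrnpa1 the higher one was above the absent controls on no array, and in Srsf3 the lower one was above them on no polysome array, so no split is shown for either under the centring used. Srsf11 and Snrpg were not split uncentred or after quantile normalization, and Srsf10 was not split uncentred. Not every gene was split. In the average of both operations the 3 probe sets of Srsf6 spanned 0.12, the 2 of Sf3a1 0.11, those of Hnrnpul2 0.05 and those of Hnrnph1 0.03. Hnrnph1 encodes an hnRNP that, like that of Hnrnpf, binds runs of guanines. Its probe sets differed by 0.19 in injured cord, which was called, and by -0.13 in sham cord, which was not. The dimmer one, 1437267_x_at, was not above the absent controls on every array. Those of Hnrnpul2 differed by 0.13 in injured cord, not called, and by -0.23 in sham cord, called.

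**Figure D3:**
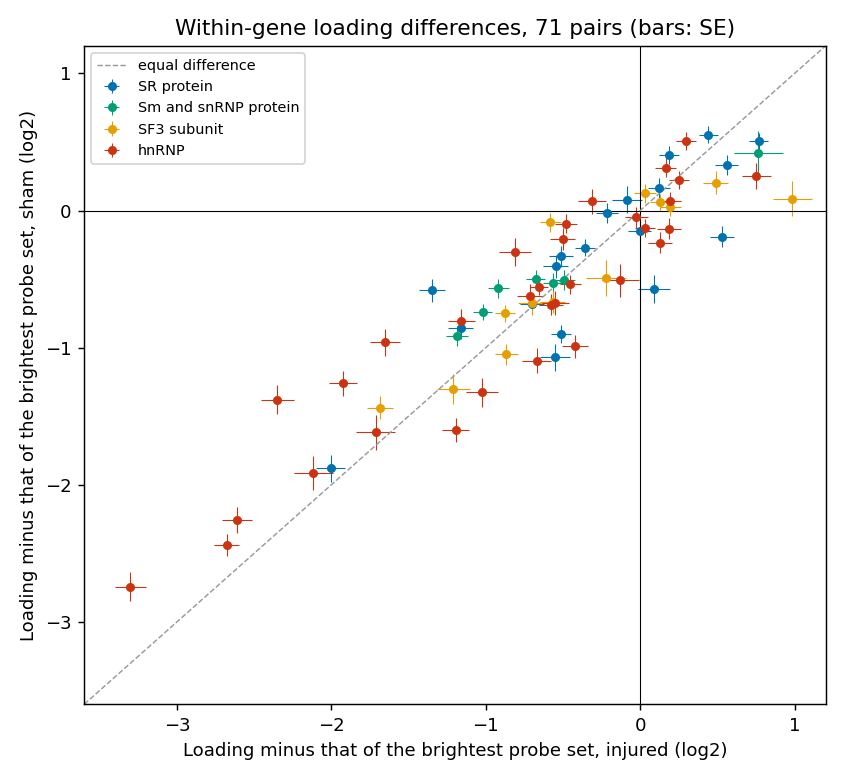
Within-gene loading difference (loading of a probe set minus that of the brightest probe set of its gene, log2, bars SE) in injured cord against sham cord for the 71 member pairs, coloured by role; the dashed line marks equal differences. The points run along the line, down to -3.30 and -2.74 for Hnrnpu 1434390_at, but not all lie on it. Sf3b1 1418562_at is at 0.99 in injured and 0.09 in sham cord, and Hnrnpu 1450849_at at -2.35 and -1.38.

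Counted one by one, most member probe sets lay higher relative to the array median on polysomes than in total RNA. In injured cord 68 of 114 (59.6%) had higher and 25 (21.9%) lower loading, where 54.1% of all probe sets were higher and 21.6% lower. In sham cord 88 (77.2%) were higher and 13 (11.4%) lower, where 41.2% and 22.9% of all were. The member medians were 0.32 in injured cord (0.18 over all probe sets) and 0.50 in sham cord (0.07). Among probe sets above the absent controls on all 12 arrays, 79.0% of members and 57.8% of all were higher in sham cord, with medians of 0.53 and 0.27. In injured cord these shares were 58.1% and 52.0%, with medians of 0.33 and 0.18. The 27 absent controls, which have no mouse target, had medians of 0.26 in injured and 0.11 in sham cord on the same scale. These directions depend on the scaling. Shares of all probe sets under the other scalings are not given here or below, so member counts under them have no background. Uncentred, 22 were higher and 67 lower in injured cord, with a median of -0.28, and 42 and 37 in sham cord, with a median of 0.00, where the median of all probe sets moved to -0.42 in both; after quantile normalization the counts were 46 and 36 in injured cord and 59 and 28 in sham cord.

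The Sm and snRNP proteins, which form the snRNP cores or belong to a single snRNP, had the highest median loading of the 4 roles under the centring used: 0.82 in injured and 0.84 in sham cord, with 10 and 13 of 15 probe sets higher. Uncentred, these medians were 0.22 and 0.35. Snrpb2, which encodes a protein of the U2 snRNP, read 10.33, 10.46 and 10.30 (1426613_a_at) on polysomes of injured cord and 10.39, 10.30 and 10.20 on polysomes of sham cord, against 9.16, 9.12 and 9.19 in injured and 9.20, 9.26 and 9.27 in sham total RNA. Every polysome array was higher, and loading was 1.81 (SE 0.06, adjusted p = 3.1e-13) and 1.55 in injured and sham cord. Snrpd3, which encodes Sm protein D3, had 9.12, 9.69 and 9.45 (1422884_at) in injured and 9.90, 9.67 and 9.33 in sham cord on polysomes, against 8.10, 7.80 and 8.35 in injured and 8.73, 8.74 and 8.75 in sham total RNA, and loadings of 1.94 and 1.39. Snrpc encodes a U1 snRNP protein that helps to recognise the 5′ splice site. Its only probe set read 10.22, 10.47 and 10.46 on polysomes of injured cord and 10.48, 10.47 and 10.32 on polysomes of sham cord, against 9.75, 9.67 and 9.56 in injured and 9.55, 9.57 and 9.57 in sham total RNA; loading was 1.32 and 1.35. The 2 probe sets with lower loading in injured cord were Snrpg 1448357_at (-0.55), for Sm protein G, and Snrpa1 1417353_x_at (-0.20).

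SF3 subunits had 20 of 22 probe sets higher in each operation, with medians of 0.52 in injured and 0.56 in sham cord; uncentred, these medians were -0.08 and 0.06. The one lower probe set was Sf3a3 1432488_a_at, described above. Among hnRNPs, 30 of 49 were higher and 12 lower in injured cord, and 35 and 8 in sham cord, with medians of 0.31 and 0.59 that became -0.29 and 0.10 uncentred. Hnrnpc encodes a core hnRNP that binds runs of uridines in nascent RNA. Its probe set 1460240_a_at read 11.80, 11.55 and 11.82 on polysomes of injured cord and 11.88, 11.91 and 11.91 on polysomes of sham cord, against 11.41, 11.15 and 11.29 in injured and 11.01, 10.94 and 11.07 in sham total RNA, and its loading was 1.04 and 1.38. SR proteins had 8 probe sets higher and 10 lower in injured cord (median 0.04), and 20 higher and 4 lower in sham cord (median 0.35), the lowest medians of the 4 roles in both; uncentred they were -0.56 and -0.14. Over all roles, the 27 probe sets built on a RefSeq mRNA record had higher loading in 25 cases and lower in 2 (average of both operations, median 0.52; over all probe sets 51.7% were higher and 23.4% lower), against 51 and 14 of the 73 built on another sequence record (median 0.31) and 9 and 5 of the 14 with no record given (median 0.65). The shares over all probe sets cover every type of record, and no background by record is given. Uncentred, the 3 classes had 11 and 11, 17 and 41, and 7 and 5, with medians of -0.02, -0.23 and 0.11.

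After injury, transcripts of these genes were mostly higher in total RNA. Of 114 probe sets, 81 (71.1%) rose and 5 (4.4%) fell, where 30.6% of all probe sets rose and 27.0% fell. Among probe sets above the absent controls on all 12 arrays, 79 of 105 members (75.2%) rose, against 44.7% of all 12695, and 5 fell, against 14.9%. The median change was 0.35, against 0.01 over all probe sets. After quantile normalization it was 0.15 for the members, of which 50 rose and 10 fell, with no share of all probe sets given. By gene, 32 of 43 had only rises among their called probe sets, 2 only falls, 3 both, and 6 no call.

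SR protein transcripts moved in one direction: 22 of 28 probe sets rose and 0 fell by limma, where the 22 with an unadjusted p under 0.05 were all rises, with a median of 0.52, and 0.35 after quantile normalization (21 rose, 1 fell). Called rises were found in 8 of the 9 genes. Srsf1 1430982_at read 9.32, 9.16 and 9.28 in injured and 8.53, 8.43 and 8.49 in sham total RNA, a change of 0.77 (SE 0.08, adjusted p = 2.8e-06). Srsf2 encodes an SR protein of nuclear speckles, and 1427504_s_at read 11.11, 11.17 and 10.99 in injured and 10.38, 10.30 and 10.35 in sham total RNA, 0.75 higher (SE 0.09, adjusted p = 9.7e-06). Srsf3 encodes a small SR protein that also takes part in mRNA export, and 1416150_a_at read 10.87, 11.03 and 10.82 in injured and 10.27, 10.17 and 10.15 in sham total RNA, 0.71 higher (SE 0.09, adjusted p = 1.5e-05). In these 3 probe sets every injured array was above every sham array. Srsf5, whose only probe set changed by 0.02 (adjusted p = 0.88), was the SR protein gene without a call.

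Among hnRNPs 40 of 49 probe sets rose and 1 fell (median 0.36; after quantile normalization 22, 2 and 0.16). Hnrnpf 1450963_at, with the array values given above, was 0.74 higher in injured than in sham total RNA (SE 0.07, adjusted p = 1.8e-06), and Hnrnpa2b1 1433830_at was 0.64 higher (SE 0.08, adjusted p = 1.4e-05), both without overlap. The spliceosome subunits were less one-sided: 7 of 15 Sm and snRNP probe sets rose and 1 fell (median 0.20), and 12 of 22 SF3 probe sets rose and 3 fell (median 0.16). After quantile normalization the 2 roles had 4 rises and 3 falls, and 3 rises and 4 falls.

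The 5 falls in total RNA were of genes of which no other probe set fell. Sf3b1 encodes the largest SF3b subunit, which contacts the branch site. Its probe set 1418562_at read 8.92, 8.70 and 9.04 in injured and 9.50, 9.48 and 9.60 in sham total RNA, without overlap, and fell by 0.64 (SE 0.15, adjusted p = 0.0023). By contrast 1449138_at read 11.17, 11.09 and 11.12 in injured and 10.61, 10.54 and 10.53 in sham total RNA and rose by 0.57 (SE 0.07, adjusted p = 9.0e-06), and 1418561_at rose by 0.55. The within-gene difference of 1418562_at from the brightest, 1449138_at, was -1.21 (SE 0.13, adjusted p = 9.2e-07). Snrpd3 1422884_at fell by 0.66 (SE 0.16, adjusted p = 0.0026; array values above), whereas 1449629_s_at read 9.10, 9.30 and 9.01 in injured and 8.96, 8.77 and 8.89 in sham total RNA and rose by 0.27 (adjusted p = 0.012). Their within-gene difference was -0.92 (SE 0.16, adjusted p = 1.5e-04). Hnrnpab 1426114_at read 10.01, 10.01 and 10.04 in injured and 10.54, 10.36 and 10.57 in sham total RNA and fell by 0.47 (SE 0.14, adjusted p = 0.0098), while 1455855_x_at rose by 0.54, a difference of -1.01 (SE 0.12, adjusted p = 3.5e-06). Sf3a2 1450576_a_at fell by 0.40 (SE 0.06, adjusted p = 4.8e-05). Its values, given above, were close to background, since the highest absent control averaged 6.85 in injured and 7.04 in sham total RNA. That limit itself changed by -0.19 after injury, without overlap, and its part in the fall was not tested. Sf3b4 1436784_x_at, at 8.12, 8.12 and 8.16 in injured and 8.36, 8.37 and 8.41 in sham total RNA, fell by 0.25 (SE 0.05, adjusted p = 0.0015). The other probe sets of these genes changed by 0.03 (Sf3a2, adjusted p = 0.75) and -0.01 (Sf3b4, adjusted p = 0.9). Over all pairs of members, 31 of 71 (43.7%) differed in their injury change in total RNA, where 49.9% of all pairs did.

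The promoters of 4 genes are shown because Srsf1 and Srsf3 both rose in total RNA, Snrpb2 had the highest loading in sham cord, and Hnrnpu had the widest spread of loading. Each is the 250 bases before the start of the RefSeq transcript on GRCm38.p6, read 5′ to 3′ on the strand of the gene: chr11:88047123-88047372 (plus strand) for Srsf1, chr17:29032410-29032659 (plus) for Srsf3, chr2:143062819-143063068 (plus) for Snrpb2 and chr1:178337816-178338065 (minus) for Hnrnpu. Capitals mark matches, on either strand, of 3 motifs: CCGGAAG, a core that ETS factors bind, CCAAT, and the GC box GGGCGG; overlapping matches run together.
Srsf1: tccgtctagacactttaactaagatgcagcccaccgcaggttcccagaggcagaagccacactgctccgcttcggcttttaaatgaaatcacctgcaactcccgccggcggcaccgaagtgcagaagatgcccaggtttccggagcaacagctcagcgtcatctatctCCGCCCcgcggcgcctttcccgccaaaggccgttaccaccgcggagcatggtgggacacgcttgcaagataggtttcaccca
Srsf3: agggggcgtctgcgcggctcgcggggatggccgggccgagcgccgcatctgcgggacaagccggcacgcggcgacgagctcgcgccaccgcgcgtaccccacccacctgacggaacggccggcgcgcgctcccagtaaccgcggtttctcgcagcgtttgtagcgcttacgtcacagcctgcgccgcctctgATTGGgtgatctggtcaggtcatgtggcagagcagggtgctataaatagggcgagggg
Snrpb2: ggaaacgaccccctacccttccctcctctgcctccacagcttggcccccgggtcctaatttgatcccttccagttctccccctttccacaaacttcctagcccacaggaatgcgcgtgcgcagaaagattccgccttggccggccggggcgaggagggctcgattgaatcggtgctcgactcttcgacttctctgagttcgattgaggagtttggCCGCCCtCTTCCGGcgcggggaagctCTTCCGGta
Hnrnpu: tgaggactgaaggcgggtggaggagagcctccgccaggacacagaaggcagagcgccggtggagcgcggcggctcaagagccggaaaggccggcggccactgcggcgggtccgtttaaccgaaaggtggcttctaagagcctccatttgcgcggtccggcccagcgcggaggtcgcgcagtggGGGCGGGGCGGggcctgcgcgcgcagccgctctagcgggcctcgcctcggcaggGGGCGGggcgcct
The table held 54 such windows of 38 of the 43 genes. CCGGAAG was found in 17 of them (31.5%), against 6.91% of all 32851 windows, CCAAT in 24 (44.4%), against 33.8%, and GGGCGG in 35 (64.8%), against 32.7%. Some genes had several windows. By gene, the motifs were found in 13, 19 and 26 of the 38 in the same order. The windows of all genes were not matched to these for base content or expression. A match describes the letters of a window and does not show that a factor bound there.

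On polysomes the change after injury was small and went both ways. Of 114 member probe sets 18 (15.8%) rose and 15 (13.2%) fell, where 9.39% of all probe sets rose and 21.5% fell, and the member median was 0.01 (-0.03 over all). The counts depend on scaling, and shares of all probe sets under the other scalings are not given. With arrays centred on their median 41 members rose and 10 fell, and after quantile normalization 32 and 10. Each role held both, with 4 and 4 of SR proteins, 2 and 1 of Sm and snRNP proteins, 5 and 3 of SF3 subunits, and 7 and 7 of hnRNPs.

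Among the rises on polysomes, Sf3b1 1418561_at read 9.62, 9.58 and 9.17 in injured and 8.93, 8.81 and 9.05 in sham cord, 0.52 higher without overlap (SE 0.10, adjusted p = 0.0012). Snrpa1 encodes a U2 snRNP protein, and 1417351_a_at read 9.91, 10.29 and 10.29 in injured and 9.81, 9.76 and 9.77 in sham cord, 0.38 higher (SE 0.09, adjusted p = 0.0052). Hnrnpab 1415914_at (0.37), Srsf6 1416721_s_at (0.37) and Snrpd3 1449629_s_at (0.36) also rose without overlap. Their lowest injured and highest sham values were 11.31 and 11.19 for Hnrnpab, 10.06 and 9.92 for Srsf6, and 9.62 and 9.39 for Snrpd3.

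Among the falls, Srsf5 1423130_a_at read 10.50, 11.06 and 10.64 on polysomes of injured cord and 11.36, 11.11 and 11.30 on polysomes of sham cord, and fell by 0.53 (SE 0.11, adjusted p = 0.002). Its total RNA values were 11.80, 11.73 and 11.82 in injured and 11.73, 11.72 and 11.85 in sham cord and overlapped. Sf3a3 1432488_a_at fell by 0.51 (SE 0.08, adjusted p = 1.9e-04), against a change of 0.00 in total RNA (SE 0.08, not called). Hnrnpll, whose product is known for the splicing of Ptprc in lymphocytes, read 8.92, 8.91 and 8.93 (1425255_s_at) on polysomes of injured cord and 9.36, 9.46 and 9.41 on polysomes of sham cord, a fall of 0.49 (SE 0.07, adjusted p = 5.6e-05). In total RNA it rose by 0.39 (adjusted p = 2.2e-04), with arrays at 9.98, 9.98 and 9.81 in injured and 9.57, 9.48 and 9.57 in sham cord. Hnrnpu 1450849_at and Srsf11 1452371_at likewise fell on polysomes and rose in total RNA; both are described next.

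**Figure D4:**
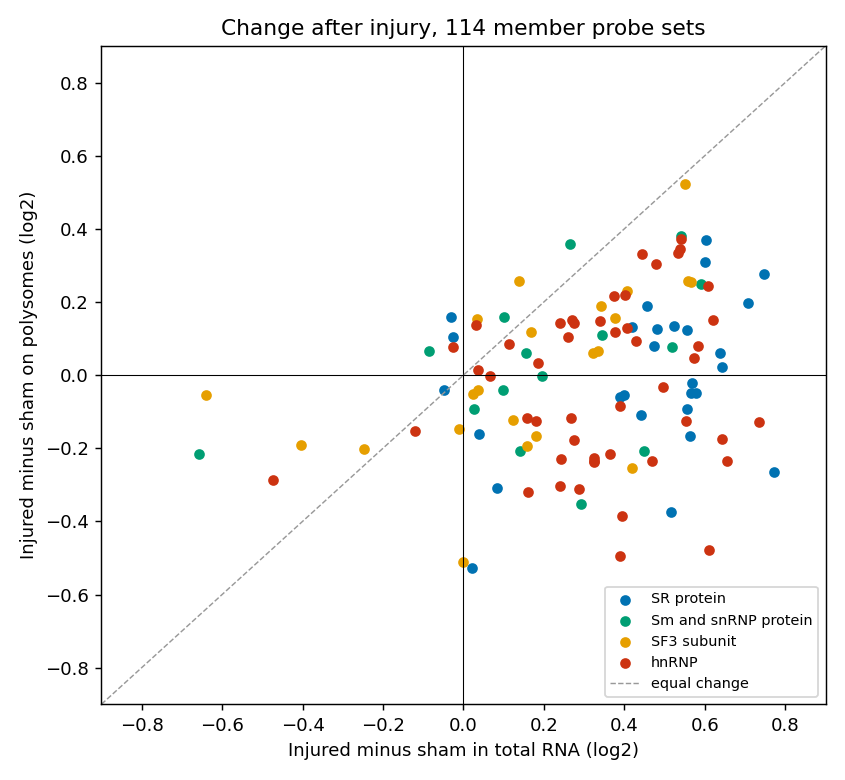
Change after injury of the 114 member probe sets, injured minus sham, in total RNA (x axis, log2) against polysomes (y axis, log2), coloured by role; the dashed line marks equal change. Most points lie right of 0 and below the line: 81 rose in total RNA and 18 on polysomes.

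The change on polysomes was tested against that in total RNA in the same fit. For 62 of 114 probe sets (54.4%) the change on polysomes was below that in total RNA and for 3 (2.6%) above it, where 29.9% and 15.5% of all probe sets were. The member median was -0.30 (-0.04 over all), and among probe sets above the absent controls on all 12 arrays 61 of 105 members (58.1%) and 43.8% of all were lower. With arrays centred 49 members were lower and 7 higher, and after quantile normalization 23 and 9, with no shares of all probe sets given. The role with most was the SR proteins (22 of 28 lower), then hnRNPs (29 of 49), SF3 subunits (7 of 22) and Sm and snRNP proteins (4 of 15); after quantile normalization these were 10, 11 and 2 for the first 3, while Sm and snRNP proteins had 4 probe sets higher and none lower, and the medians of SF3 subunits (0.10) and of Sm and snRNP proteins (0.11) turned above 0.

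Hnrnpu 1450849_at read 7.36, 7.56 and 7.26 on polysomes of injured cord and 8.04, 7.75 and 7.84 on polysomes of sham cord, and 9.45, 9.29 and 9.44 in injured and 8.81, 8.72 and 8.82 in sham total RNA. It fell by 0.48 on polysomes (adjusted p = 6.7e-04) and rose by 0.61 in total RNA (adjusted p = 5.6e-05), without overlap in either, a difference of -1.09 (SE 0.12, adjusted p = 2.8e-05). Srsf1 1430982_at read 7.76, 8.09 and 7.91 on polysomes of injured cord and 8.21, 8.13 and 8.21 on polysomes of sham cord, where it fell by 0.26 (adjusted p = 0.017), and the difference from its rise in total RNA was -1.03 (SE 0.11, adjusted p = 1.9e-05). Hnrnpf 1423382_a_at read 8.52, 8.85 and 8.57 on polysomes of injured cord and 8.83, 8.87 and 8.95 on polysomes of sham cord, and 9.87, 9.86 and 9.71 in injured and 9.17, 9.15 and 9.15 in sham total RNA. The injured arrays were higher in total RNA and overlapped the sham arrays on polysomes, and the difference was -0.89 (SE 0.12, adjusted p = 6.5e-05). Srsf11 encodes an SR protein of nuclear speckles, and 1452371_at read 9.57, 9.67 and 9.56 on polysomes of injured cord and 10.01, 9.89 and 10.03 on polysomes of sham cord, and 11.13, 11.15 and 11.11 in injured and 10.60, 10.56 and 10.69 in sham total RNA. It fell by 0.37 on polysomes and rose by 0.51 in total RNA, a difference of -0.89 (SE 0.09, adjusted p = 1.5e-05).

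The 3 probe sets with the opposite difference were Sf3b1 1418562_at (0.59, SE 0.21, adjusted p = 0.034), Sf3a2 1450576_a_at (0.21, adjusted p = 0.042) and Srsf2 1427816_at (0.19, adjusted p = 0.044). As given above, the Sf3a2 probe set was close to background in total RNA. Sf3b1 1418562_at read 9.40, 9.92 and 9.10 on polysomes of injured cord and 9.62, 9.42 and 9.54 on polysomes of sham cord, which overlapped. Srsf2 1427816_at read 7.36, 7.24 and 7.25 on polysomes of injured cord and 7.11, 7.09 and 7.19 on polysomes of sham cord, and 7.44, 7.49 and 7.49 in injured and 7.50, 7.50 and 7.51 in sham total RNA. Leaving out each of the 12 arrays in turn ended the call for Sf3b1 in 7 cases, for Sf3a2 in 7 and for Srsf2 in 9, with adjusted p of up to 0.087, 0.11 and 0.099 in that order, and the Sf3b1 difference then lay between 0.36 (without replicate 2 of injured polysomes) and 0.77. The arrays concerned were, for Sf3b1, replicates 2 and 3 of sham polysomes, 1 and 2 of injured total RNA and all 3 of sham total RNA. For Sf3a2 they were replicate 3 of injured polysomes, 1 and 3 of sham polysomes, and 1 and 2 of both injured and sham total RNA. For Srsf2 they were replicate 1 of injured polysomes, 1 and 2 of sham polysomes and all 6 of total RNA. With the replicate number as a block the adjusted p was 0.058 for Sf3b1 and 0.076 for Srsf2. Within genes, 27 of 71 pairs (38.0%) changed their loading difference after injury, where 40.4% of all pairs did, and 37 (52.1%) differed in their change on polysomes, where 35.0% of all did. The largest change of a loading difference was that of Hnrnpu 1450849_at against 1423050_s_at, at -0.97 (SE 0.15, adjusted p = 1.3e-04).

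A list of 79 other splicing genes held snRNP and other spliceosome proteins, kinases, helicases and regulators, and so overlaps the members in role. Of these genes, 67 were measured by 157 probe sets. Those probe sets gave 81 rises (51.6%) and 27 falls (17.2%) in total RNA, where 30.6% and 27.0% of all probe sets did so. On polysomes 20 rose (12.7%) and 24 fell (15.3%), where 9.39% and 21.5% of all did, and the change on polysomes was below that in total RNA for 59 (37.6%) and above it for 21 (13.4%), where 29.9% and 15.5% of all were. In total RNA the lowest adjusted p were those of Rbm5 1456262_at (-0.66, SE 0.05), Clk4 1422886_a_at, a kinase of SR proteins (0.88, SE 0.08), Luc7l2 1436766_at (-1.20), Prpf4b 1436427_at (0.61) and Sfpq 1436898_at (-1.29). Probe sets of 1 gene went opposite ways here too: Sfpq, which encodes a paraspeckle protein, also had 0.74 with 1423795_at, Luc7l2 0.44 with 1423251_at, and Rbm5 0.40 with 1452186_at, all past the threshold. On polysomes Mbnl1, a regulator of alternative exons, fell by 0.50 (1416904_at), Khdrbs3 by 0.61 (1453317_a_at), Tra2b by 0.45 (1419543_a_at), Lsm2 by 0.45 (1451884_a_at) and Srpk2, another kinase of SR proteins, by 0.41 (1417134_at). Each of these 5 probe sets rose in total RNA, by 0.38, 0.47, 0.53, 0.35 and 0.28 in the same order. Other probe sets of Srpk2 disagreed. In total RNA 1417135_at (-1.03) and 1417136_s_at (-0.95) fell, whereas 1448603_at rose (0.22) and fell on polysomes (-0.38). Tra2b 1427432_a_at was not called on polysomes (-0.08).

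Cell type markers also moved with injury. In total RNA the mean of 4 infiltrating myeloid genes ranged over 9.17 to 9.72 in injured and 8.52 to 8.85 in sham cord, that of 3 microglia genes over 7.38 to 7.52 and 8.07 to 8.13, and that of 5 neuron genes over 11.14 to 11.29 and 11.38 to 11.51. On polysomes the ranges of injured and sham cord were 7.83 to 8.56 and 7.86 to 8.08 for the myeloid genes, 6.82 to 7.03 and 7.44 to 7.56 for microglia, and 11.16 to 11.22 and 11.25 to 11.30 for neurons. The neuron genes did not move alike in total RNA: Syt1 (-0.94) and Rbfox3 (-0.83) fell, Snap25 (0.18) and Nefl (0.18) rose, and Nefm (0.10) was not called. Nor did the myeloid genes. S100a8 and S100a9 rose in total RNA (1.37 and 1.59) and on polysomes (0.97 and 0.95). Lyz2 was not called in total RNA (0.09) and fell on polysomes (-1.04), and Ccr2 lay above the absent controls on no array. The mean of 4 astrocyte genes was 10.49 to 10.52 in injured and 10.08 to 10.18 in sham total RNA, but 9.17 to 9.27 in injured and 9.44 to 9.56 in sham cord on polysomes, where Gfap rose by 0.41 and Aqp4 fell by 1.21. Pmp22, the Schwann cell gene measured, rose by 0.78 in total RNA and fell by 0.40 on polysomes after injury. These 2 sets were thus higher in total RNA and lower on polysomes without overlap. The part of these shifts in the changes of splicing genes was not tested.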

How the data were processed

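Affymetrix arrays of polysome-bound and total spinal cord RNA from injured and sham mice (4 groups of 3 biological replicates) were analysed. The values are on a log2 scale in the table the authors deposited, as judged from their range of 5.26 to 14.65; background correction, normalization and summarisation are not given in the sources used here. Per the labels, 5 µg of total or 3 µg of polysome RNA was labelled. Signal over background, and not a read depth, limits precision. Members and gene lists were chosen with earlier results of these data known.

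Genes were named by the platform annotation: 20393 probe sets name 1 gene, 691 several and 1606 none. All 43 member genes matched the RefSeq table (GRCm38.p6). With limma 3.58.1 in R 4.3.3, 4 group means were fitted with a trended prior, and p-values were adjusted by Benjamini-Hochberg over the 20393 probe sets, or over the 7999 within-gene pairs. Injury was tested on deposited values and loading on centred values; code was tested on simulated data. Any member gene could be named by role, and array values were given by rank of change. In sham cord, same-numbered polysome and total arrays deviated together weakly (correlations of 0.165, 0.148 and 0.119). With so few arrays per group, these small values cannot show that same-numbered arrays came from the same cord. The titles give only a replicate number. Alternatives were quantile normalization, centring, a filter on low values, a replicate block, leaving out each array, and dropping the less specific probe set types _s_at and _x_at.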

Additional observations from a re-analysis of the deposited data

Results flagged for a closer look

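The change after injury differed between polysome-bound and total RNA, in a test of the difference itself, for 65 member probe sets (62 below and 3 above 0, or 54.4% and 2.6%, where 29.9% and 15.5% of all probe sets were), and the loading difference within a gene changed after injury for 27 member pairs (38.0% of 71, below the 40.4% of all pairs). Among the probe sets described, the change on polysomes minus that in total RNA was -1.09 for Hnrnpu 1450849_at, -1.03 for Srsf1 1430982_at, -0.89 for Hnrnpf 1423382_a_at and -0.89 for Srsf11 1452371_at. It was above 0 for Sf3b1 1418562_at (0.59), Sf3a2 1450576_a_at (0.21) and Srsf2 1427816_at (0.19).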

How the results depend on the processing

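No within-gene difference, injury change or extreme loading named by rank changed sign under the alternatives run. Other loadings did: uncentred, 49 of 114 probe sets in injured and 36 in sham cord changed sign, 21 and 11 of them called in both fits, Sf3a2 1450576_a_at and Hnrnpdl 1420093_s_at among those that changed sign. The restriction to probe sets above the absent controls, and the scalings of split genes and of source records, were chosen after seeing the data. After quantile normalization 32 member probe sets (9 higher, 23 lower), against 65, differed between polysome and total change, and 51 (41 higher, 10 lower), against 33, changed on polysomes after arrays were centred. Without probe sets ending in _s_at or _x_at, 39 pairs remained, of which 34 differed in loading in injured cord, 33 in sham cord and 35 in their average, 19 in injury change in total RNA, 18 on polysomes and 15 in the difference of both; fewer pairs are tested by construction. Other splits that moved were 32 higher and 10 lower for injury on polysomes after quantile normalization, and 7 and 49 for the difference of changes after centring.

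Leaving out each array gave 71 to 90 called probe sets for injury in total RNA, 25 to 42 on polysomes, 54 to 70 for the difference, 89 to 96 for loading in injured cord and 98 to 102 in sham cord. For pairs the ranges were 57 to 61, 49 to 57 and 59 to 63 for loading in injured cord, sham cord and their average, and 25 to 35, 28 to 37 and 20 to 28 for injury in total RNA, on polysomes and the difference. Of the named values, the calls lost were those of the 3 positive differences (23 without single arrays, 2 after quantile normalization and 2 with the replicate block; the cause was not tested); 878 others kept direction and call. In injured cord same-numbered arrays did not deviate together (correlations of -0.119, 0.032 and 0.043). With the replicate block 86, 33 and 62 probe sets were called for injury in total RNA, on polysomes and the difference, 95 and 101 for loading, and 58, 56 and 60 pairs for loading; apart from the Sf3b1 and Srsf2 differences it changed no named call.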
